A study of Mus musculus with 16 samples.

Results

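Oxidative phosphorylation is the process by which mitochondria make ATP, and most of its protein subunits are encoded in the nucleus. Complexes I to IV pass electrons along the inner membrane to oxygen, complexes I, III and IV pump protons as they do so, and complex V, the ATP synthase, uses the returning protons to make ATP. Colonocytes rely on it heavily because they burn butyrate made by gut bacteria. The genes described here are those whose name on the array is that of a nuclear subunit of complexes I to V. The name rule matched 84 genes, of which 82 had a probe that 4 or more of the 16 arrays marked as well above background, among 24475 genes kept by that filter. Cox7b2 and Cox8c, the testis form of subunit 8, were well above background on 0 arrays and were left out. The 82 genes comprise 35 assigned to complex I, 4 to complex II, 8 to complex III, 17 to complex IV and 15 to complex V, and 3 that belong to no complex. Of the 82, 78 are subunits. Atp5c1-ps is a pseudogene, Atp5s and Atp5sl carry older names of proteins that are not counted among the ATP synthase subunits, and Cox7a2l is a factor for joining complexes that is counted here with complex IV. Ndufa4, first described in complex I, is placed in complex IV.

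All 16 mice were ApcMin/+, heterozygous for an inactivating mutation of the tumour suppressor Apc, and RNA came from colon regions without visible tumour on day 28. The 4 Sham mice drank water. The 6 Control mice had 1.5% (weight per volume) dextran sulphate sodium (DSS), which injures the colonic epithelium, in the drinking water for 3 days, and the 6 5-ASA mice were given 5-aminosalicylic acid (5-ASA), an anti-inflammatory drug, besides that DSS. The labels give the later dosing in 2 ways: saline or 5-ASA given into the colorectum over 28 days in the protocol, and plain water or 5-ASA to drink over the 25 days after DSS in the descriptions of single samples. The mouse line's background, the sex and the age of the mice are not given in the sources used here. Each mouse was measured on 1 single-colour Agilent array. Values are log2 intensity minus the 75th percentile of log2 intensity on that array, so 0 is the array's own 75th percentile and a difference of 1 is 2-fold. Differences were tested with limma in 1 model of the 3 groups, and a gene was called at a Benjamini-Hochberg adjusted p under 0.05 over all 24475 genes.

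Of the 82 genes, 81 were well above background on all 16 arrays, and no saturated spot was found on any array. The spread between mice of a group was small: the median residual SD was 0.11 for the 82 genes, against 0.26 for all genes tested. The 82 genes were also brighter, with a median level of 5.64 against -0.53, and the part of brightness in the spread was not tested. All 10 epithelial markers (such as Epcam and Krt8) and all 15 absorptive colonocyte markers were well above background on all 16 arrays. The arrays lay on 2 slides with 2 rows each. Arrays of every Sham mouse and of Control 1, 2, 4 and 5 were in the upper row, and those of every 5-ASA mouse and of Control 3 and 6 in the lower row. Of all spots, 59.8% to 65.2% were well above background on upper-row arrays and 53.0% to 57.7% on lower-row arrays. Between Sham and 5-ASA, group and row cannot be told apart except through the Control mice. Libraries of whole tissue mix cell types, and fewer cells of a type and less RNA per cell cannot be told apart.

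Comparing Control with Sham asks what the colon looked like after DSS, with saline or plain water given, since the labels differ. Most oxidative phosphorylation genes had a slightly higher mean in Control mice, and no single gene passed the test. The median difference of the 82 genes was 0.08 (1.06-fold), and 69 of 82 were higher, against 49.7% of all genes and a median of -0.002 over all genes tested. None of the 82 was called with limma, where 0.0531% of all genes tested were called, and 6 of 82 (7.32%) had an unadjusted p under 0.05, where 8.87% of all genes did. All 6 were higher in Control, where 5.35% of all genes passed in that direction. These 6 were Ndufs1, Ndufa9, Ndufa10 and Ndufb7 of complex I, Uqcrc1 of complex III and Atp5g1 of complex V. The groups did not overlap for 5 genes (6.1%), where 3.31% of all genes tested did not. All 5 were higher in Control, where 2.62% of all genes separated in that direction. Among them were Ndufs1, Sdhd, Atp5k and Atp5g1. Sdhd and Atp5k were named after their values were seen.

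**Figure D1:**
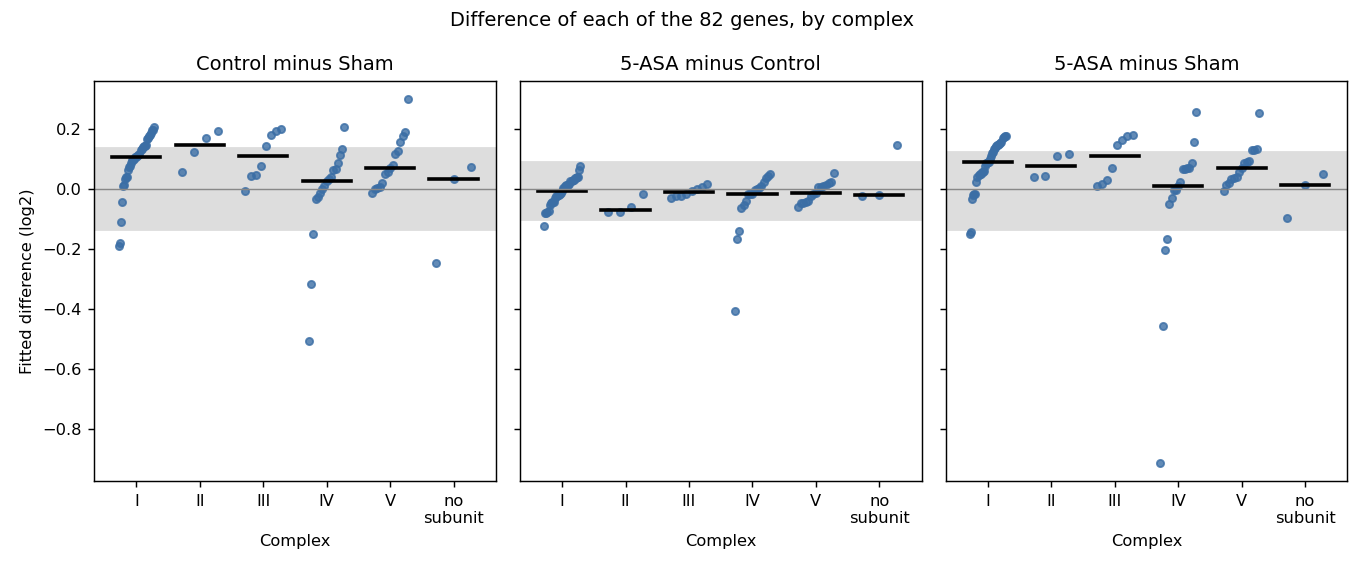
Fitted log2 difference of each of the 82 genes (points) by complex, for the 3 comparisons. Black bars are the medians of each complex, and the grey band spans the middle 50% of all genes tested. In Control minus Sham, the medians of complexes I, II, III and V lie between 0.07 and 0.15 and that of complex IV at 0.03.

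Comparing 5-ASA with Control asks what the drug changed after DSS. Here the 82 genes scattered around 0, with a median of -0.02, 34 of 82 higher, and 49.5% of all genes higher. With limma, 0 of 82 were called and 0 of 82 had an unadjusted p under 0.05. Of all genes tested, 0% were called, and 4.09% had an unadjusted p under 0.05. The groups overlapped for all 82 genes, where 0.135% of all genes did not overlap. Intervals were taken from the model of the 3 groups, which holds no term for array row or slide. Each rests on the brightest kept probe of its gene. The 95% interval of the difference lay within 1.25-fold either way for 77 of 82 genes and within 1.5-fold for 80 of 82. The genes with wider intervals than 1.5-fold were Cox6a2 and Cox8b, the striated-muscle forms of 2 subunits of complex IV. For Control minus Sham, 53 of 82 intervals lay within 1.25-fold, and for 5-ASA minus Sham 56 of 82. Since row and group overlap in part, the intervals describe these groups of arrays and do not bound the drug's part alone. For 28 genes several probes were kept. Their signs agreed for 19 in 5-ASA minus Control, 20 in 5-ASA minus Sham and 21 in Control minus Sham. In 5-ASA minus Control, the median spread between probes of a gene was 0.03. The probes ran from -0.25 to 0.01 for Ndufa3 and from 0.03 to 0.18 for Ndufb11, so other probes can differ from these intervals.

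5-ASA against Sham compares drug-treated colon after DSS with colon that had neither. The median difference was 0.07 (1.05-fold) and 66 of 82 genes were higher, against 49.2% of all genes. With limma, 0 of 82 were called, where 0.0531% of all genes were, and 6 of 82 (7.32%) had an unadjusted p under 0.05, where 10.9% of all genes did. Ndufa5, Ndufs1, Ndufs6, Uqcrc1 and Atp5g1 were higher in 5-ASA (6.1%, against 5.82% of all genes) and Cox6a2 was lower (1.22%, against 5.12%). The groups overlapped for all 82 genes, where 1.8% of all genes did not overlap. This comparison shares its Sham mice with the first and its 5-ASA mice with the second, so the 3 medians are not independent.

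In some mice nearly all of the 82 genes lay on 1 side of their means, and in others they were split. With each gene centred on its own mean over the 16 arrays, the median of the 82 genes was 0.17 in 5-ASA 1 and 0.13 in 5-ASA 2, and -0.15 in Sham 2 and -0.12 in 5-ASA 3. In 5-ASA 1, 73 of 82 genes lay above their mean and 39 had their highest value of all mice. In Sham 2, 6 of 82 lay above their mean and 36 had their lowest value. The genes were split in Sham 3 (41 of 82 above), Control 1 (42), Control 4 (45) and 5-ASA 4 (48). The 6 5-ASA mice thus spanned more (-0.12 to 0.17) than the 6 Control mice (-0.05 to 0.08) or the 4 Sham mice (-0.15 to -0.00), and the groups overlapped. The SD between mice was 0.12 in 5-ASA, 0.05 in Control and 0.06 in Sham. Sham 3 held the highest value of 16 genes, among them Ndufa1 and Ndufa6, although its median was -0.00.

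**Figure D2:**
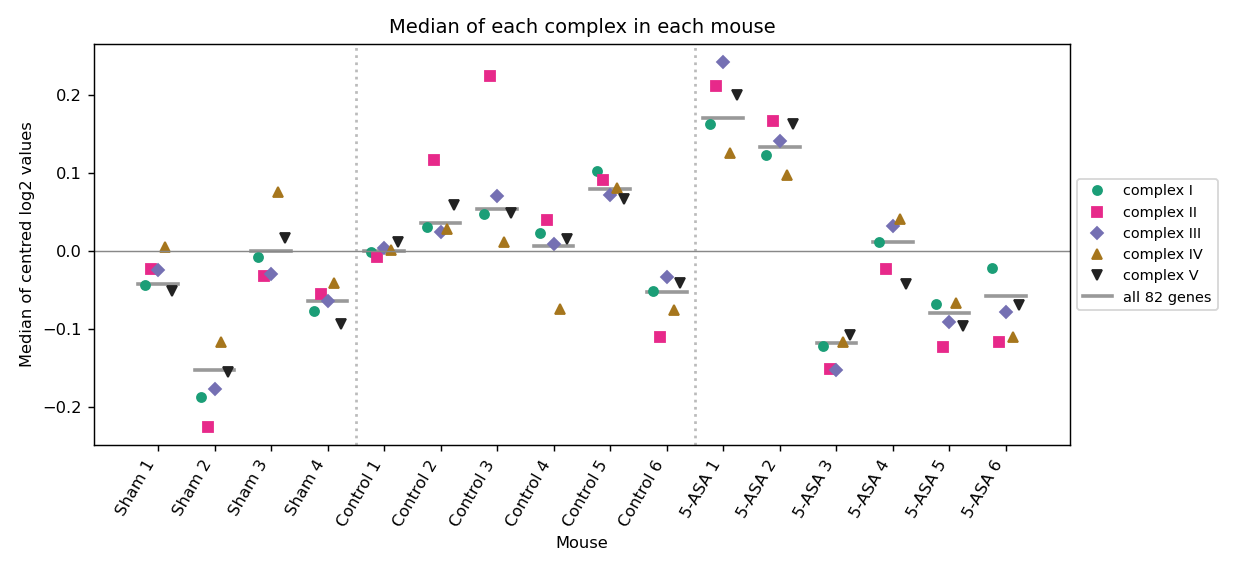
Median of centred log2 values of each complex (symbols) and of all 82 genes (grey bars) in each of the 16 mice. The medians of 5-ASA 1 and 2 stand above those of the other 4 5-ASA mice for all 5 complexes, and Sham 2 is the lowest Sham mouse for all 5.

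Markers of dividing cells also differed between the groups. All 16 proliferation markers, such as Mki67 and Mcm2, had a higher mean in Control than in Sham, and 0 of 16 were called by limma, while 10 were higher with an unadjusted p under 0.05 (5.35% of all genes) and 9 were higher without overlap (2.62% of all genes). The log2 of their summed level was 5.96 to 6.33 in Sham, 6.50 to 7.27 in Control and 6.08 to 7.73 in 5-ASA, with 5-ASA 1 the highest and 5-ASA 2 at 7.47. 5-ASA 1 and 5-ASA 2 stood highest for both lists, while the order of some other mice differed. Sham 2, the lowest mouse for the 82 genes, had the highest proliferation sum of the Sham mice (6.33, with Sham 4 at 6.32). 5-ASA 6 had a sum of 7.21 with a median of -0.06 for the 82 genes. The 12 smooth muscle markers, all with a lower mean in Control than in Sham and in 5-ASA, summed to 9.13 to 10.14 in Sham, 8.30 to 10.11 in Control and 9.40 to 9.85 in 5-ASA, and the 10 epithelial markers to 10.14 to 10.38, 10.20 to 10.32 and 10.18 to 10.34. All 10 B cell markers had a lower mean in Control than in Sham (median -1.06) and in 5-ASA than in Sham (median -1.98). In 5-ASA against Sham, 8 were lower with an unadjusted p under 0.05, where 5.12% of all genes were. By limma, 0 of the 10 B cell markers were called in either comparison. Their summed log2 level was 0.86 to 5.16 in Sham, 1.06 to 5.32 in Control and 1.00 to 1.91 in 5-ASA. Of 9 fibroblast markers, 8 had a lower mean in Control than in Sham (median -0.32), with sums of 7.21 to 7.44 in Sham, 6.51 to 7.33 in Control and 6.92 to 7.33 in 5-ASA. Of 15 absorptive colonocyte markers, 8 had a higher mean in Control than in Sham (median 0.05). In 5-ASA, 9 of 15 had a lower mean than in Sham (median -0.17), and 0 were called. They summed to 9.94 to 10.33 in Sham, 9.97 to 10.20 in Control and 9.79 to 10.16 in 5-ASA. All smooth muscle markers and 15 or 16 of the 16 proliferation markers were well above background on every array, and the part of any of these lists in the differences of the oxidative phosphorylation genes was not tested.

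Values were also taken within rows and slides. Within the upper row, with 4 Control and 4 Sham mice, the median of the 82 genes was 0.09 and 67 of 82 were higher in Control. Within the lower row, with 6 5-ASA and 2 Control mice, the median of 5-ASA minus Control was 0.01 and 45 of 82 were higher. Control minus Sham was 0.13 on slide 1 (75 of 82 higher) and 0.04 on slide 2 (52 of 82), 5-ASA minus Control was 0.03 and -0.06, and 5-ASA minus Sham was 0.16 and -0.02. Slide 1 held Sham 2, 5-ASA 1 and 5-ASA 2, the 3 mice farthest from 0. Without Sham 2, the median of Control minus Sham was 0.06 with 59 of 82 higher, and that of 5-ASA minus Sham was 0.04. Without 5-ASA 1, the median of 5-ASA minus Sham was 0.03.

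**Figure D3:**
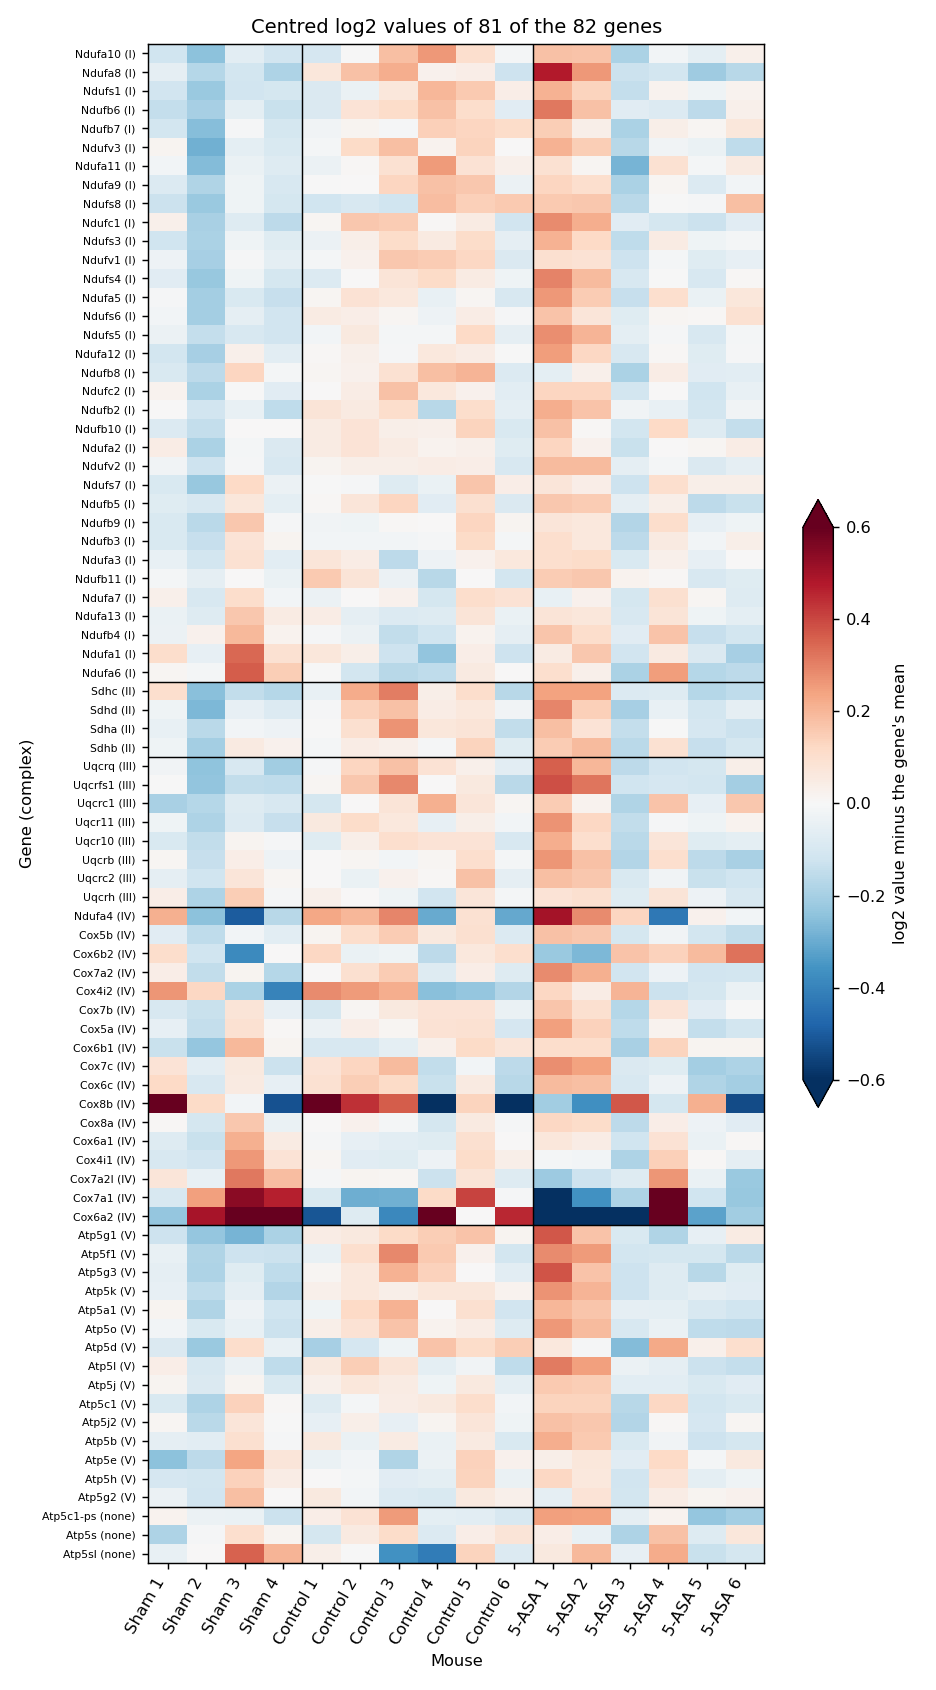
Log2 values of 81 of the 82 genes (rows, with their complex) in the 16 mice (columns), each minus the gene's own mean over all mice. Within a complex, genes are ordered by Control minus Sham, and colours stop at the ends of the scale bar. Sham 2 (6 of 82 above the mean) and 5-ASA 3 (5 of 82) are mostly blue, 5-ASA 1 (73) and 5-ASA 2 (74) mostly red, and Cox6a2, Cox7a1 and Cox7a2l are blue in both of the latter.

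Many nuclear genes of the respiratory chain carry short motifs near their start for the factors NRF1, GABPA and YY1. RefSeq promoters (assembly GRCm38.p6), from 250 bases before to 50 after the start, were matched for 68 of 82 genes. Both strands were searched for exact letters. GCGC, any 2 bases and GCGC again, the core of the NRF1 motif, was in 18 of 68 (26.5%), against 7.0% of all 27025 genes with a promoter there. CCGGAAGT, an ETS motif bound by GABPA, was in 5 of 68 (7.35%) against 4.31%, and AAGATGGC, a YY1 motif, in 11 of 68 (16.2%) against 3.19%. At least 1 of the 3 was in 32 of 68 (47.1%) against 13.3%, and none of the 3 motifs contains another. By complex, it was in 15 of 31 matched genes of complex I, 2 of 3 of complex II, 3 of 5 of complex III, 2 of 13 of complex IV and 9 of 14 of complex V. A match is a description of the letters and not a measured site. The 27025 genes were not limited to those kept on the arrays or to genes as bright as the 82. The part of brightness or of G and C content in these shares was not tested.

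Promoters are shown for the 3 matched genes whose Control and Sham mice did not overlap, since they share that pattern and differ in the motif. All 3 lie on the minus strand, are printed 5′ to 3′ and have an NRF1 core, where there is one, in capitals. Atp5k at chr5:108434350-108434649 holds it from 50 bases before the start, Sdhd at chr9:50603800-50604099 from 79 bases before, and Atp5g1 at chr11:96075582-96075881 has none of the 3 motifs in this window.
Atp5k: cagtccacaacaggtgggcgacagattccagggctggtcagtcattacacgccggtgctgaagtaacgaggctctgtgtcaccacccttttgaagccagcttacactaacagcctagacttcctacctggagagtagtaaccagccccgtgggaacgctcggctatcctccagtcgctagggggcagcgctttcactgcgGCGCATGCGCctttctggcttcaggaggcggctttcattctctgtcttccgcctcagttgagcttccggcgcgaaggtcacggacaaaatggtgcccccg
Sdhd: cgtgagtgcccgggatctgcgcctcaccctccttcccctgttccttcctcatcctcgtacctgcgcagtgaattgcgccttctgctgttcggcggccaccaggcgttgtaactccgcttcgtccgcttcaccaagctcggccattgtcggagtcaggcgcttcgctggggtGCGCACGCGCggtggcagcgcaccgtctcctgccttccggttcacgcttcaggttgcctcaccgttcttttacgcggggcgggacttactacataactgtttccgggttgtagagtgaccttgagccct
Atp5g1: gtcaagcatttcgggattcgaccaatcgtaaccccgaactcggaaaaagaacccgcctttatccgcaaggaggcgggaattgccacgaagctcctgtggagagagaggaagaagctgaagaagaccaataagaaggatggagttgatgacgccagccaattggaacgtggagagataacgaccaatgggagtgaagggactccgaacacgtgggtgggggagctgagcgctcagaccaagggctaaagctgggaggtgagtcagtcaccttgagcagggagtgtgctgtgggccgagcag
Ndufs1 was not matched.

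Complex I, NADH dehydrogenase, takes electrons from NADH. In Control minus Sham, its 35 genes had a median of 0.11 and 31 of 35 were higher. Its catalytic arm includes Ndufs1, the largest iron-sulphur subunit, whose probe lies at chr1:63190360-63190419 (mm9). Ndufs1 read 4.83, 4.72, 4.83 and 4.84 in Sham 1 to 4, 4.85 at the lowest, 4.99 at the median and 5.14 at the highest in Control, and 4.80, 4.96 and 5.15 in 5-ASA. Every Control mouse was above every Sham mouse, by a narrow gap, and the 5-ASA mice overlapped with both groups. The difference of Control from Sham was 0.20 (SE 0.08), with an adjusted p of 0.561 by limma.

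Ndufa10, an accessory subunit, had the highest difference of Control from Sham in complex I, 0.21 (SE 0.09, adjusted p = 0.561 by limma). Ndufb7, another accessory subunit, had a mean of 5.39 ± 0.10 in the 4 Sham mice, 5.57 ± 0.07 in the 6 Control mice and 5.53 ± 0.11 in the 6 5-ASA mice (SD). Ndufv1, the subunit that binds NADH, differed by 0.13 (SE 0.07). Against this direction stood 4 of 35 genes: Ndufa6 (-0.19, SE 0.10), Ndufa1 (-0.18, SE 0.10), Ndufb4 (-0.11) and Ndufa13 (-0.04), all small accessory subunits. Ndufa6 read 5.47, 5.44, 5.82 and 5.60 in Sham and 5.29, 5.40 and 5.51 in Control, so 2 of 4 Sham mice lay within the Control range, and Sham 3 was the highest of all mice. Its adjusted p was 0.577 and that of Ndufa1 0.575 by limma. Ndufb8, whose protein is widely used as a marker of assembled complex I, had the lowest difference of 5-ASA from Control in the complex, -0.12 (SE 0.07, unadjusted p = 0.1 and adjusted p = 0.999 by limma).

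Complex II, succinate dehydrogenase, is also an enzyme of the TCA cycle and is the only complex with all its subunits encoded in the nucleus. All 4 genes were higher in Control than in Sham, with a median of 0.15, and all 4 were lower in 5-ASA than in Control, with a median of -0.07. None was called in either comparison. Control minus Sham had a median of 0.23 on slide 1, with 4 of 4 higher, and of 0.06 on slide 2, with 3 of 4 higher. 5-ASA minus Control had a median of -0.03 on slide 1, with 1 of 4 higher, and of -0.09 on slide 2, with 0 of 4. The centred median of complex II was -0.23 in Sham 2, on slide 1, and -0.06 in the next lowest Sham mouse. Sdhd, a membrane anchor, read 5.99, 5.74, 5.96 and 5.93 in Sham, and 5.99, 6.06 and 6.19 at the lowest, median and highest in Control. The Control mice lay above the Sham mice, with the nearest pair equal to 2 decimals, so the separation is within rounding. The difference was 0.17 (SE 0.09, adjusted p = 0.584 by limma). Sdhc, the other anchor, differed by 0.19 (SE 0.12), Sdha, the flavoprotein that oxidises succinate, by 0.12 (SE 0.09), and Sdhb, the iron-sulphur subunit, by 0.06 (SE 0.09). For 5-ASA minus Control, Sdha was at -0.08 (SE 0.08) and Sdhb at -0.02 (SE 0.08).

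Complex III passes electrons from ubiquinol to cytochrome c. Control minus Sham had a median of 0.11 over its 8 genes, with 7 of 8 higher, and 8 of 8 were higher in 5-ASA than in Sham. On slide 2 alone, 4 of 8 were higher in 5-ASA than in Sham, with a median of -0.01, and on slide 1 8 of 8, with a median of 0.17. Uqcrc1, a core subunit, averaged 4.01 ± 0.06 in Sham (SD, n = 4) and 4.19 in both other groups, with an SD of 0.11 in Control and 0.14 in 5-ASA (n = 6 each). It differed from Sham by 0.18 in both groups, with adjusted p = 0.562 for Control and 0.456 for 5-ASA by limma. Uqcrq, a small accessory subunit, was 0.20 (SE 0.10) higher in Control than in Sham, and Uqcrh, the hinge protein, stood at -0.01 (SE 0.07). Uqcrfs1, the Rieske iron-sulphur protein that takes the first electron from ubiquinol, read 5.52, 5.28, 5.37 and 5.37 in Sham, 5.36, 5.56 and 5.81 in Control and 5.32, 5.42 and 5.90 in 5-ASA. Its groups overlapped, and the high 5-ASA values were those of 5-ASA 1 (5.90) and 5-ASA 2 (5.84).

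Complex IV, cytochrome c oxidase, reduces oxygen, and several of its subunits exist as a broadly expressed form and a form of muscle, lung or testis. Control minus Sham had a median of 0.03, with 11 of 17 higher, and 5-ASA minus Sham a median of 0.01, with 9 of 17 higher. Both turned with the slide: Control minus Sham was 0.10 on slide 1 and -0.07 on slide 2, and 5-ASA minus Sham 0.08 and -0.08. The broad forms listed next differed between Control and Sham by less than their SE. Cox4i1 was at -0.03 (SE 0.08), Cox6a1 at -0.03 (SE 0.08), Cox8a at -0.01 (SE 0.07), Cox6b1 at 0.03 (SE 0.09) and Cox7a2 at 0.09 (SE 0.10). Ndufa4 had the highest difference of the complex from Sham in Control (0.21, SE 0.18) and in 5-ASA (0.26, SE 0.18), with adjusted p = 0.738 and 0.663 by limma. Its values ran from 4.33 to 5.05 in Sham and from 4.52 to 5.12 in Control, a spread wider than the difference.

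The muscle forms Cox6a2 and Cox7a1 had the largest differences of the 82 genes from Sham, in both other groups, with wide errors. Cox6a2, the heart and skeletal muscle form of subunit 6a, was well above background on 4 of 4 Sham, 5 of 6 Control and 1 of 6 5-ASA arrays. It read -4.49, -3.76, -3.29 and -3.35 in Sham, -4.77, -4.29 and -3.57 at the lowest, median and highest in Control, and -5.45, -4.83 and -3.10 in 5-ASA. The groups overlapped, and the only 5-ASA mouse with a well-measured signal, 5-ASA 4, was also the highest of all mice. The difference of 5-ASA from Sham was -0.91 (SE 0.39, unadjusted p = 0.0351, adjusted p = 0.418 by limma) and that of Control from Sham was -0.51 (SE 0.39, adjusted p = 0.705). Since most 5-ASA values were near background, the size of this difference is uncertain.

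Cox7a1, the heart and skeletal muscle form of subunit 7a, which is also present in brown fat, read 4.26, 4.61, 4.90 and 4.83 in Sham, 4.07, 4.31 and 4.77 in Control, and 3.62, 4.15 and 5.00 in 5-ASA. The lowest was 5-ASA 1 and the highest 5-ASA 4, so the 5-ASA mice spanned the Sham range at both ends. Its difference from Sham was -0.31 (SE 0.22) in Control and -0.46 (SE 0.22) in 5-ASA, with adjusted p = 0.67 and 0.464 by limma. Cox8b, another muscle and brown fat form, averaged -1.58 in both Sham (SD 0.49, n = 4) and Control (SD 0.58, n = 6) and -1.74 in 5-ASA (SD 0.35, n = 6). Cox4i2, the lung form of subunit 4, differed by 0.07 (SE 0.15) between Control and Sham, and Cox6b2, the testis form of subunit 6b, by 0.11 (SE 0.13). Cox7a2l averaged 6.33 ± 0.15 in the 4 Sham mice, 6.18 ± 0.07 in the 6 Control mice and 6.12 ± 0.18 in the 6 5-ASA mice (SD).

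Of 12 skeletal muscle markers, 8 were kept, and 0 of 8 were called. Their summed log2 level was 2.03 to 3.29 in Sham, 1.37 to 3.08 in Control and 2.18 to 2.82 in 5-ASA, so the groups overlapped, and 7 of 8 had a lower mean in Control than in Sham and 3 of 8 a lower mean in 5-ASA than in Sham. Their differences of 5-ASA from Sham ran from -0.77 (Tnnt3) to 0.26 (Ckm), with a median of 0.05. Of 10 adipocyte markers, 9 were kept, and 9 of 9 had a lower mean in 5-ASA than in Sham. Their summed log2 level was 4.48 to 6.46 in Sham, 4.27 to 5.97 in Control and 4.25 to 5.85 in 5-ASA. The part of either tissue in the values of Cox6a2, Cox7a1 and Cox8b was not tested.

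**Figure D4:**
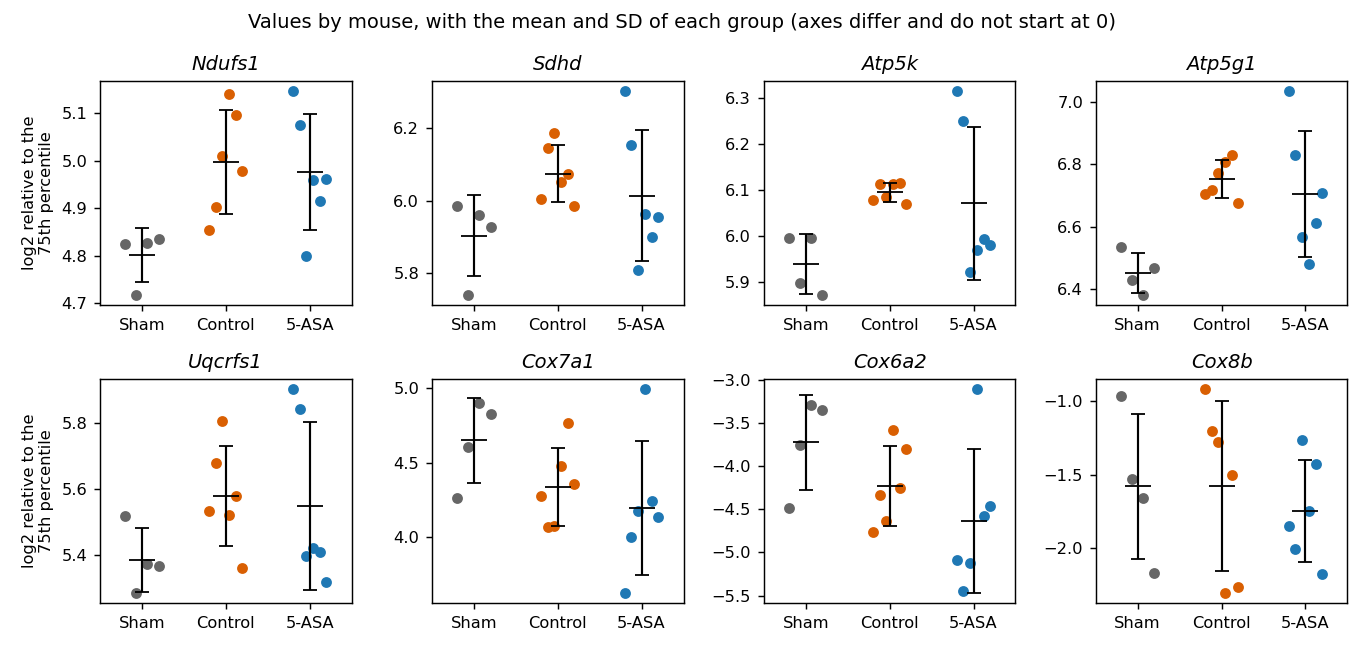
Log2 values by mouse (points) of 4 genes whose Control and Sham mice did not overlap, of Uqcrfs1 and of 3 muscle forms of complex IV, with the mean and SD of each group. Each panel has its own axis. Control lies above Sham for Ndufs1, Sdhd, Atp5k and Atp5g1, while the 5-ASA mice overlap with both groups in all 8 panels.

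Complex V makes ATP. Control minus Sham had a median of 0.07 with 14 of 15 genes higher, and the same count was higher in 5-ASA than in Sham. The latter turned with the slide: 5-ASA minus Sham had a median of 0.17 with 15 of 15 higher on slide 1, and of -0.03 with 5 of 15 higher on slide 2. Control minus Sham had a median of 0.12 with 15 of 15 higher on slide 1, and of 0.03 with 9 of 15 higher on slide 2. Atp5g1, 1 of 3 genes for the c-subunit of the rotating membrane ring, had the smallest p of the 82 genes. Its probe lies at chr11:95934315-95934374 (mm9). It read 6.53, 6.43, 6.38 and 6.47 in Sham, 6.68, 6.75 and 6.83 at the lowest, median and highest in Control, and 6.48, 6.66 and 7.03 in 5-ASA. All Control mice were above all Sham mice by a clear gap, and 5 of 6 5-ASA mice were above all Sham mice. The difference was 0.30 (1.23-fold, SE 0.09, unadjusted p = 0.00635, adjusted p = 0.561 by limma) for Control and 0.25 (SE 0.09, adjusted p = 0.361) for 5-ASA. The second kept Atp5g1 probe, which is dimmer, gave -0.08 and -0.04, so the probes of this gene disagree in sign.

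The other c-subunit genes encode the same mature protein. Atp5g3 differed between Control and Sham by 0.18 (SE 0.10) and Atp5g2 by -0.01 (SE 0.07). Atp5k, the e-subunit of the membrane part, read 5.996, 5.897, 5.995 and 5.871 in Sham, 6.069, 6.099 and 6.115 at the lowest, median and highest in Control, and 5.921, 5.987 and 6.315 in 5-ASA. The 6 Control mice lay close together (SD 0.02) and above every Sham mouse, and its 3 probes agreed in sign. The difference was 0.16 (SE 0.08, adjusted p = 0.571 by limma). Atp5b, the catalytic beta subunit, averaged 7.45 ± 0.07 in the Sham mice, 7.46 ± 0.06 in the Control mice and 7.47 ± 0.15 in the 5-ASA mice (SD). Among the 3 genes of no complex, Atp5sl, which takes part in the assembly of complex I, differed from Sham by -0.25 (SE 0.12) in Control, and Atp5s (0.03) and Atp5c1-ps (0.07) by less than their SE.

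The array also carries the 13 protein genes of mitochondrial DNA, whose products join the same complexes. They were added as a list after their values were seen. All 13 had a lower mean in Control than in Sham, from -0.15 (ND6) to -0.02 (ATP8), with a median of -0.07, where 78 nuclear subunits had a median of 0.09. None of the 13 was called, none had an unadjusted p under 0.05, and the groups overlapped for all 13. The direction of the 13 held for all of them under median scaling and the authors' table, and for 12 of 13 under quantile scaling. For 5-ASA minus Control, 12 of 13 were higher, with a median of 0.03, falling to 8 of 13 under quantile scaling and 9 of 13 under median scaling.

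For each mouse, the median of the mitochondrial genes was subtracted from that of the 78 nuclear subunits, both centred per gene. The result was -0.16, -0.12, -0.13 and -0.06 in Sham 1 to 4. It was -0.06, 0.10, 0.09, 0.16, 0.08 and -0.04 in Control 1 to 6. In the 5-ASA mice it ran from -0.07 to 0.15. Sham had the lowest mean, -0.12 ± 0.04 (SD, n = 4), against 0.05 ± 0.09 (n = 6) in Control and 0.01 ± 0.09 (n = 6) in 5-ASA. Sham 4 and Control 1 read the same to 2 decimals, and 5-ASA overlapped with Sham. The nuclear and mitochondrial shifts were not of equal weight on the slides: the mitochondrial median of Control minus Sham was -0.02 on slide 1, with 8 of 13 lower, and -0.12 on slide 2, with 12 of 13 lower. Without Sham 1 it was -0.04, with 11 of 13 lower, and without Sham 3 it was -0.05.

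**Figure D5:**
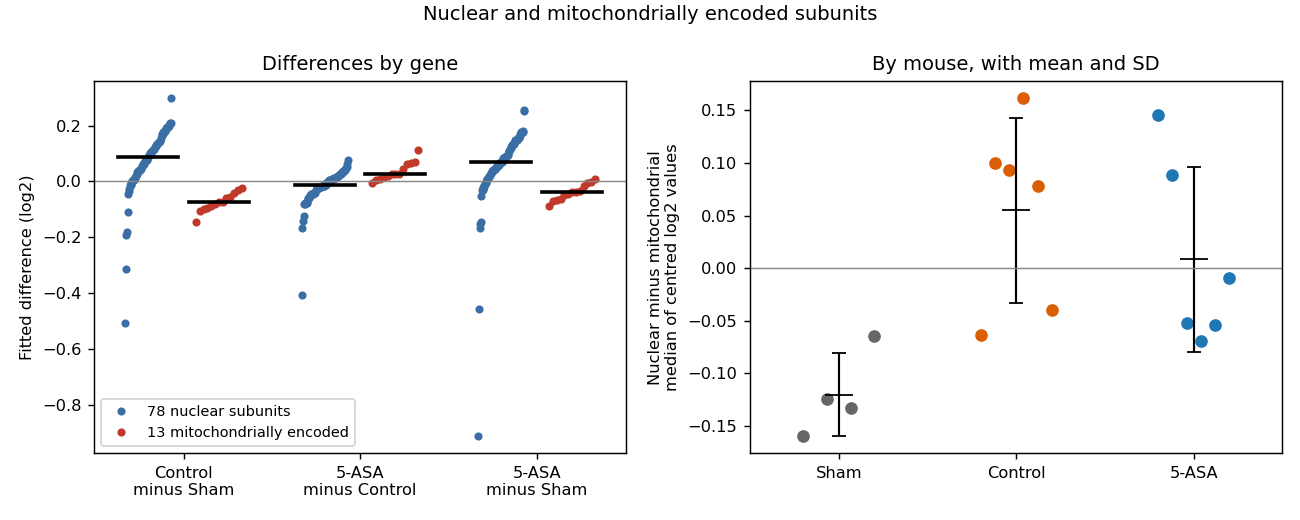
Left, fitted log2 difference of 78 nuclear subunits (blue) and 13 mitochondrially encoded subunits (red) for the 3 comparisons, with medians as black bars. Right, nuclear minus mitochondrial median of centred log2 values by mouse, with the mean and SD of each group: the 4 Sham mice lie between -0.16 and -0.06.

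Most genes that build and feed the complexes also had a higher mean in Control than in Sham, and none was called in any comparison. Control exceeded Sham for 34 of 44 measured assembly factors, with a median of 0.08, and 39 were higher in 5-ASA than in Sham. Ndufaf4, an assembly factor of complex I, read 1.81, 1.98, 1.65 and 1.84 in Sham and between 2.06 and 2.51 in Control. Its difference was 0.45 (SE 0.13) for Control minus Sham, without overlap, and -0.38 (SE 0.12) for 5-ASA minus Control, with overlap. The adjusted p was 0.561 and 0.999 by limma. Of 23 genes of electron carriers, coenzyme Q synthesis, uncoupling and ATP export, 20 were higher in Control, with a median of 0.10. Etfb, which passes electrons from fatty acid oxidation to the chain, was 0.25 (SE 0.07) higher in Control and 0.23 (SE 0.07) higher in 5-ASA than in Sham, without overlap in either.

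Of 22 genes of the TCA cycle and pyruvate entry, 20 were higher in Control, with a median of 0.12, led by Idh2, the mitochondrial isocitrate dehydrogenase that makes NADPH (0.29, SE 0.09). Of 24 genes of protein import and membrane structure, 23 were higher in Control and 23 in 5-ASA than in Sham, with medians of 0.19 and 0.16. Hspa9, the chaperone that pulls proteins into the matrix, was 0.36 (SE 0.11) and 0.38 (SE 0.11) higher without overlap. For 5-ASA minus Control, the medians of these lists lay between -0.03 and 0.03.

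Regulators of mitochondrial biogenesis did not share 1 direction. Of 20 measured, 11 were higher in Control than in Sham, with a median of 0.01. Ppargc1a, the coactivator PGC-1alpha that drives respiratory genes, had the lowest difference of the list. It read 2.21, 2.21, 2.62 and 1.94 in Sham, 1.03 to 1.91 in Control, without overlap, and 0.84 to 2.75 in 5-ASA. The difference was -0.74 (SE 0.29, unadjusted p = 0.0208, adjusted p = 0.561 by limma) for Control and -0.69 (SE 0.29, adjusted p = 0.408) for 5-ASA. 5-ASA 1, the mouse with the highest oxidative phosphorylation median, had the lowest Ppargc1a value of all mice, and 5-ASA 4 the highest. The oxidative phosphorylation median was 0.01 in 5-ASA 4. In 5-ASA 3 it was -0.12, with Ppargc1a at 1.36. The relation across mice was not tested. Tfam, which packages and transcribes mitochondrial DNA, read 2.04, 1.92, 1.85 and 2.02 in Sham and 2.08 to 2.25 in Control, without overlap. Its difference was 0.18 (SE 0.09, adjusted p = 0.565 by limma) for Control and 0.27 (SE 0.09, adjusted p = 0.339) for 5-ASA. Nrf1, whose motif was searched above, differed by 0.05 (SE 0.08) and Esrra, a nuclear receptor partner of PGC-1alpha, by 0.02 (SE 0.11) between Control and Sham. Twnk (Peo1 on the array), the mitochondrial DNA helicase, was 0.22 (SE 0.07, unadjusted p = 0.00917, adjusted p = 0.999 by limma) higher in 5-ASA than in Control.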

How the data were processed

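Scanner files of 16 single-colour Agilent arrays were used, 1 per mouse. Agilent Feature Extraction 10.10.1.1 gave the spot intensity, with background subtracted and a spatial trend removed and no scaling between arrays, per the file headers. Flags of 0 or 1 mark spots well above background, saturated or outlying, per the file headers, which name the build mm9 for probe positions. The authors' deposited value table holds log2 values with scale and centring unstated. It was used as an alternative.

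From the intensity of the non-control probes, log2 values minus each array's 75th percentile were taken, leaving out outlying spots and averaging the spots of 1 probe. A probe was kept if well above background on at least 4 arrays, and the probe with the highest mean stood for its gene. Names are those of the array's design. Groups were compared in limma 3.58.1 (R 4.3.3) without covariates, over 24475 genes, and a gene was called at a Benjamini-Hochberg adjusted p under 0.05. No set test was run, and lists are described by counts and medians. The fitting steps were tested on simulated data. Precision is limited by the number of mice, and nothing says whether litters or cages were shared.

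The members and lists were chosen with earlier results of these data known. Named genes are, per comparison, members called or the 3 with the smallest p, the highest and lowest of each complex, the isoform pairs, the catalytic subunits, the gene with the smallest p of each other list, Ppargc1a, Tfam, Nrf1 and Esrra, and names that are no subunit. Other genes named were chosen after their values were seen. Alternatives covered background correction, scaling, the filter on dim probes, the choice of probe, the authors' table, slide, row, outer spot rows, the replicate number and leaving out each mouse. Replicate numbers were not taken to pair the mice. The values of 1 member are not reported here singly, though counts and medians hold it.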

Additional observations from a re-analysis of the deposited data

Results flagged for a closer look

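Of 129 groups of mice examined over the named genes and the medians of the complexes, 4 held 1 mouse far from the others of its group, which is no more than the about 1 group in 20 that chance gives. Ndufs1 was 4.7168 in Sham 2, below the next Sham mouse at 4.8252. The median of centred values of complex II was -0.2254 in Sham 2, where the next Sham mouse was at -0.0553. Cox6b1, the broad form of subunit 6b of complex IV, was 3.5548 in 5-ASA 3, below the next 5-ASA mouse at 3.7659. Cox7a2l was 6.4589 in 5-ASA 4, above the next 5-ASA mouse at 6.1541.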

How the results depend on the processing

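Under 29 alternatives per comparison, 0 of the 82 genes were called with limma in any comparison, and the smallest adjusted p of a member was 0.0755, for 5-ASA against Sham without 5-ASA 4. Without a filter on dim probes, 2941 of all genes were called for 5-ASA against Control in place of 0, and 0 members. For 5-ASA against Sham, 25 genes were called without 5-ASA 4 and 3 with array row in the model, in place of 13. For Control against Sham, 8 were called with array row or with the replicate number in the model, in place of 13, and for 5-ASA against Control 7 with array row and 1 on slide 2, in place of 0. With probes well above background on all 16 arrays, or without the outer spot rows, 0 genes were called in each comparison, where 13 were called for each comparison with Sham. Within a slide, 1 to 4 genes were called against Sham. Members with an unadjusted p under 0.05 numbered 0 to 13 for Control against Sham (13 under quantile scaling, 1 under median scaling) and 0 to 11 for 5-ASA against Sham, in place of 6. The median of Control minus Sham lay between 0.04 and 0.13 and was above 0 throughout. In each comparison, leaving out a mouse of the group not compared cannot move the median or a sign. Those alternatives are therefore no check on either. The median of 5-ASA minus Control lay between -0.06 and 0.03 and turned above 0 on slide 1, with array row in the model, and without Control 5, 5-ASA 3, 5-ASA 5 or 5-ASA 6. The median of 5-ASA minus Sham was 0.162 on slide 1 and -0.016 on slide 2, and it lay between 0.03 and 0.10 under the others. The median of complex IV for Control minus Sham fell below 0 on slide 2 and without Sham 2, Sham 4 or Control 3. The sign of the difference held under all alternatives for 18 of 29 named members in Control minus Sham, 9 of 27 in 5-ASA minus Control and 12 of 29 in 5-ASA minus Sham. The cause of these shifts was not tested.

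Same-numbered mice did not all deviate together. The correlation of their deviations from the group means was 0.61, 0.03, -0.21 and 0.22 for Control and Sham, 0.03 to 0.23 for 5-ASA and Control, all above 0, and 0.16, 0.11, -0.20 and 0.16 for 5-ASA and Sham, so the numbers were not taken as pairs. With the replicate number as a block, the medians were 0.11, -0.02 and 0.09 and 0 members were called. Brightness limited 1 gene, Cox6a2.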

Other observations

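Glycolysis makes ATP outside the mitochondrion. Its list here also holds the transporters Slc2a1 and Slc16a3 and the pyruvate dehydrogenase kinases Pdk1 to Pdk4. The list had a median farther from 0 between 5-ASA and Control than the oxidative phosphorylation genes, which was not tested. Of 22 measured, 19 were higher in Control than in Sham, with a median of 0.25, and 17 were lower in 5-ASA than in Control, with a median of -0.18. None was called with limma. The unadjusted p was under 0.05 for 7 of 22 in the first comparison, 6 higher and 1 lower, and for 8 of 22 in the second, all lower in 5-ASA, where 8.87% and 4.09% of all genes tested had such a p. Slc2a1, the glucose transporter GLUT1, was lower in every 5-ASA mouse than in every Control mouse (-0.50, SE 0.15, adjusted p = 0.999 by limma). It read 4.197 to 5.011 in Control, highest in Control 3 (5.011) and Control 4 (4.659), and 3.574 to 4.184 in 5-ASA. With each gene centred on its own mean, the list's median was 0.32 in Control 3 and 0.38 in Control 4. It was -0.01 to 0.11 in the other Control mice and -0.28 to 0.14 in the 5-ASA mice. All 5-ASA arrays lay in the lower row and most Control arrays in the upper, and the part of the row was not tested. The list's median for 5-ASA minus Sham was -0.01.

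Of 20 genes of fatty acid and butyrate oxidation, the main fuel route of colonocytes, 17 were lower in 5-ASA than in Control, with a median of -0.08, and 13 were higher in Control than in Sham, with a median of 0.02. None was called with limma. Slc16a1, a transporter of butyrate and lactate, had the smallest p for 5-ASA minus Control (-0.23, SE 0.11, adjusted p = 0.999), and Acat1, which splits acetoacetyl-CoA, for Control minus Sham (0.30, SE 0.10, adjusted p = 0.561).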
